A study of Mus musculus with 14 samples.

Results

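The Hedgehog ligands, receptors and effectors measured here are 9 genes: the ligand Ihh, the receptor Ptch1, the decoy receptor Hhip, the co-receptors Boc and Cdon, the signal transducer Smo and the transcription factors Gli1, Gli2 and Gli3. They were taken by gene symbol from a count table of 23331 genes. All 9 were found and all 9 passed the filter on low counts, which 13896 genes of the table passed. The ligand Ihh passed it only through libraries of clones with osteogenic potential. Their levels were followed in 14 RNA sequencing libraries of clonal mouse bone marrow stromal cells sorted by which skeletal lineages the clones could form. 4 of the 9 genes, Ihh, Ptch1, Boc and Gli1, were higher in all 3 osteogenic-only libraries than in all 3 adipogenic-only libraries, by fitted factors of 34.8, 3.35, 5.56 and 6.88. Of all tested genes, 15.6% did not overlap between these groups. The members were chosen with earlier results of these data known, so they are not a blind draw to set against this share. No member's difference passed the false discovery rate (FDR) of 0.05 in edgeR. All 4 passed in DESeq2, as did 3.03% of genes, and 3 of these 4 calls, all but that of Boc, were lost when certain single libraries were left out.

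Hedgehog proteins are secreted signals that pattern the embryo and, in the growing skeleton, couple cartilage growth to bone formation. In the absence of ligand the membrane protein Ptch1 holds the membrane protein Smo inactive, and Gli proteins, mainly Gli3, are processed into repressors. When a ligand binds Ptch1, with Boc, Cdon or Gas1 as co-receptors, Smo accumulates in the primary cilium and full-length Gli2 and Gli3 activate target genes. Ptch1, Hhip and Gli1 are themselves textbook targets, so that the pathway induces inhibitors of its own along with an activator. Ihh (Indian hedgehog) is the ligand of prehypertrophic chondrocytes in the growth plate, where it is needed for osteoblasts to form.

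The cells were flushed from femora and tibiae of adult C57Bl/6 mice carrying the irtTA-GBD*-TAg transgene. This transgene expresses the viral Large T antigen, which keeps cells dividing, when dexamethasone and doxycycline are given. All groups share this conditional immortalization, the presence of both drugs from the first passage, and 3 days of culture without them before RNA was taken. The labels group the clones by the lineages they formed in culture, where O stands for bone, A for fat and C for cartilage. There are 3 libraries each of clones with all 3 potentials (OAC), with bone and fat potential (OA), with bone potential only (O) and with fat potential only (A). The libraries OC3 (bone and cartilage) and AC3 (fat and cartilage) stand alone. In each group of 3, libraries 1 and 2 are each a single clone, from different mice, and library 3 is a pool of several further clones of those mice. OC3 and AC3 are pools of several clones too. P-values therefore rest on how far these clones and pools differ, and all come from the same pair of mice. The labels do not state whether a library number marks the same mouse in every group. Each library is RNA of many cells, so that fewer expressing cells and less RNA per cell cannot be told apart. A pool also averages over clones. The 4 comparisons with A use the same 3 A libraries and are not independent of each other.

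Total counts were 16888190 to 26076539 per library, and levels are given as CPM, counts scaled to TMM-adjusted library size. Libraries differed in their relation to GC content. Across genes, the Spearman rho between GC content and the departure of a library from the average was most positive in OA2 (0.65) and O1 (0.51), was 0.35 and 0.36 in OAC1 and OAC2, and was as low as -0.54 in OAC3, OC3 and AC3. The members' exonic GC content ran from 41.2% for Hhip to 62.3% for Ihh, with 47.8% for Ptch1, 55.9% for Boc and 59.0% for Gli1. The part of this trend in single levels was not tested. With a correction for GC content in all libraries, the log2 differences of O over A were 5.40 for Ihh, 1.79 for Ptch1, 2.46 for Boc and 2.92 for Gli1, against 5.12, 1.74, 2.47 and 2.78 without it. The main differences are also given without OA2 and O1. The 14 stromal markers, mostly collagen I reads, summed to 18600 to 23800 CPM in A, 57300 to 90600 in O, 53900 to 83700 in OA and 41200 to 68900 in OAC, so they moved with the osteogenic groups. In O against A, DESeq2 called 4 of them higher and 1 lower. The pan-leukocyte gene Ptprc had 0 reads in 12 libraries and 1 read in each of O3 and OC3, and the 8 measured blood markers summed to 10.2 to 17.5 CPM in A, 7.31 to 49.1 in O, 5.52 to 8.37 in OA and 6.16 to 16.7 in OAC. The macrophage gene Lyz2 was higher in O, at 37.2, 2.52 and 8.37 CPM in O1 to O3 and 0.247, 2.51 and 0.534 CPM in A1 to A3 (edgeR FDR 0.343, DESeq2 adjusted p 0.0147). The macrophage gene Cd68 went the other way with overlap, at 7.26, 3.37 and 6.60 against 13.8, 6.16 and 8.40 CPM. The median log2 difference of the 3 tested blood genes was -0.31. The list of Schwann and neural markers summed to 27.4 to 258 CPM in A and 57.9 to 102 in O. In it, S100b was higher in O, at 13.5, 15.2 and 5.21 CPM against 0.699, 0.729 and 0.725 (edgeR FDR 0.229, DESeq2 adjusted p 0.000716). Mbp of the same list went the other way with overlap, at 2.10, 0.933 and 1.725 against 3.87, 1.945 and 3.78 CPM. Of the 5 tested genes of the list, 1 was higher and 1 lower at an unadjusted edgeR p under 0.05, against 9.89% of all genes. Lyz2, Cd68, S100b and Mbp were picked after their values were seen. The part of any of these markers in the Hedgehog levels was not tested. The endothelial gene Cdh5 had 0 reads in 10 libraries, and the 8 endothelial markers summed to 4.66 to 9.89 CPM in A and 3.76 to 8.66 in O.

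The members differed widely in level. Per kilobase of exon, the median over the 14 libraries was 44.0 CPM for Smo, 11.7 for Ptch1, 8.72 for Boc, 8.16 for Cdon, 7.72 for Gli3 and 4.83 for Gli2. It was 1.06 CPM per kilobase for Gli1, 0.141 for Ihh and 0.0808 for Hhip. The receiving apparatus was thus present in every library, while the ligand and Hhip were near the limit of detection in many. The order in variability was nearly the reverse. Over the 12 libraries of the replicated groups the standard deviation of log2 CPM was 2.39 for Hhip, 1.95 for Ihh, 1.47 for Gli1, 1.11 for Boc and 0.948 for Gli2. It was 0.833 for Ptch1, 0.485 for Cdon, 0.412 for Gli3 and 0.320 for Smo.

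**Figure D1:**
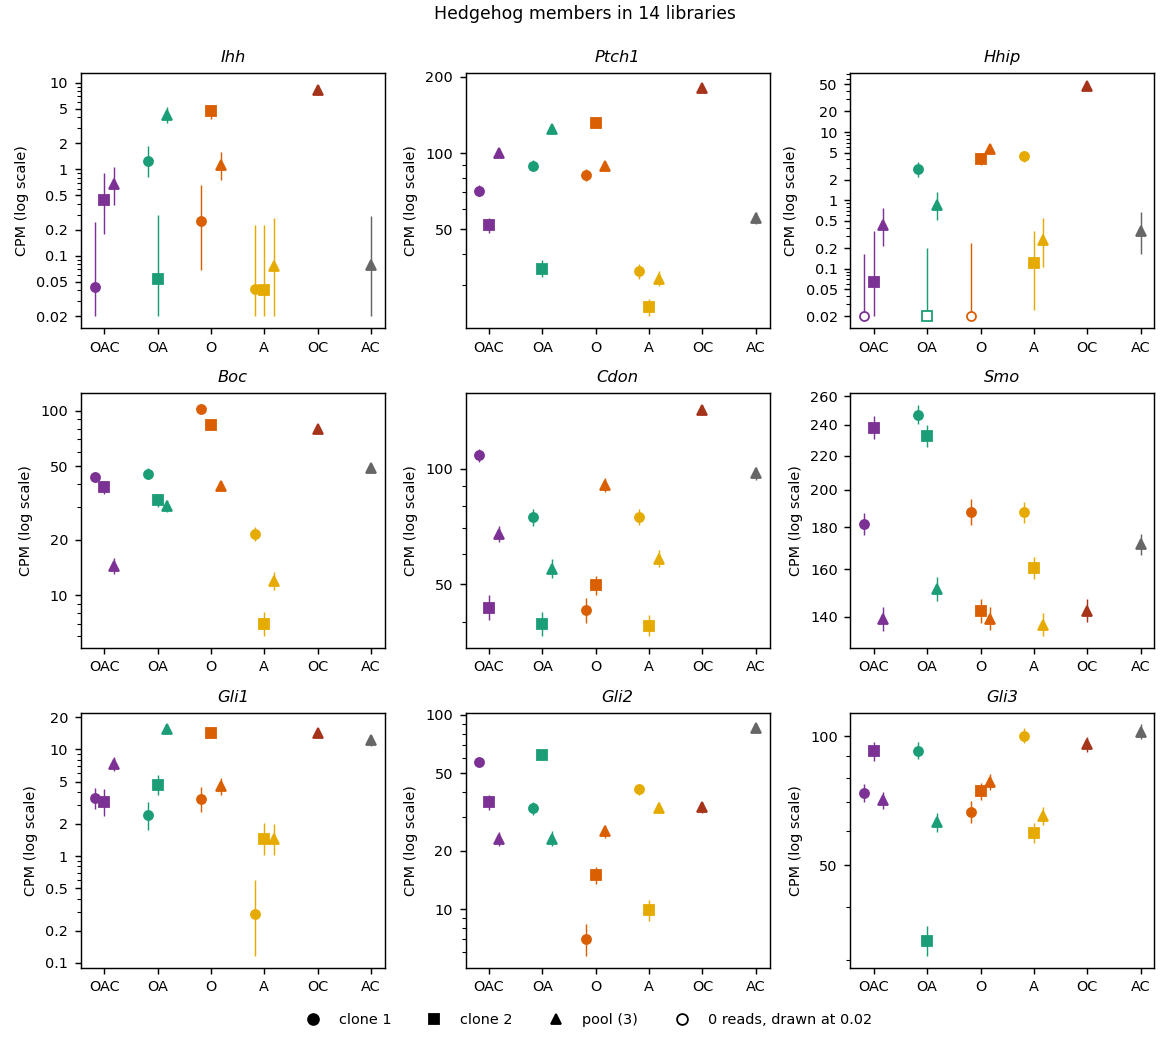
Level of each of the 9 Hedgehog genes in each of the 14 libraries, in CPM on a log axis, by group; circles and squares are single clones 1 and 2, triangles are pools, bars are 95% exact Poisson intervals, and open symbols at 0.02 mark 0 reads. For Ptch1 and Gli1, in these TMM-scaled values, all 9 libraries of the O, OA and OAC groups lie above all 3 A libraries, and OC3 is the highest library for Ihh, Ptch1, Hhip and Cdon.

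Ihh (ENSMUSG00000006538), the ligand, was read 1, 1 and 2 times in A1, A2 and A3, which is 0.0411, 0.0405 and 0.0763 CPM. The O libraries held 4, 115 and 30 reads (0.255, 4.67 and 1.13 CPM), the OA libraries 25, 1 and 95 reads (1.25, 0.0536 and 4.26 CPM) and the OAC libraries 1, 7 and 17 reads (0.0441, 0.440 and 0.671 CPM). All O libraries were above all A libraries, whereas OA2 and OAC1, with 1 read each, lay within the range of A. Ihh reached the 1 CPM of the filter only in OA1, OA3, O2, O3 and OC3. It was therefore tested only because of libraries where it is high, and its place among the members higher than A is not independent of the filter. The ratio of summed reads to those of A, scaled by library size, was 41.8 in O (95% counting interval 16.0 to 155), 37.3 in OA (14.2 to 139) and 7.36 in OAC (2.54 to 29.1). These intervals cover counting error only and not the difference between clones. In edgeR the log2 fold change in O over A was 5.12 ± 1.60 (SE, n = 3 and 3, unadjusted p 0.00897, FDR 0.329, DESeq2 adjusted p 0.0160), a fitted value that depends on 4 reads in A. Without OA2 and O1 it was 5.62, and without O2 it was 3.60 (DESeq2 adjusted p 0.248). The DESeq2 call was also lost without A1, A2 or A3, at adjusted p-values of 0.0901, 0.0974 and 0.0534.

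The osteoblast transcription factor Sp7 (osterix) is a marker of the osteoblast lineage in the same libraries. It was at 0.617, 0.486 and 1.03 CPM in A1, A2 and A3. In O1, O2 and O3 it was at 22.4, 398 and 54.4 CPM, in OA1, OA2 and OA3 at 216, 13.5 and 193 CPM, and in OAC1, OAC2 and OAC3 at 5.21, 114 and 109 CPM. Within each of these 3 groups the library with the least Sp7 (O1, OA2 and OAC1) also had the least Ihh and 0 reads of Hhip. The same 3 libraries had GC trends of 0.51, 0.65 and 0.35, and the part of GC content or of osteogenic state in their Ihh level was not tested.

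Ptch1 (ENSMUSG00000021466), the receptor and a transcriptional target of the pathway, was measured with many more reads. It was at 34.1, 24.5 and 31.8 CPM in A1, A2 and A3. It was at 82.2, 132 and 88.8 CPM in O1 to O3, at 89.3, 34.9 and 124.5 CPM in OA1 to OA3, and at 71.1, 51.8 and 100.5 CPM in OAC1 to OAC3. The 3 groups with osteogenic potential did not overlap with A, although OA2 exceeded the highest A library, A1, by less than 1 CPM and lay below it when the total count alone was the library size. The group means were 101 ± 27.0 CPM in O, 82.9 ± 45.1 in OA, 74.4 ± 24.5 in OAC and 30.1 ± 5.00 in A (SD, n = 3 each). In edgeR, O exceeded A by 1.74 ± 0.43 on the log2 scale (SE, unadjusted p 0.00216, FDR 0.229, 95% interval 0.79 to 2.70, DESeq2 adjusted p 0.00424). Without OA2 and O1 the difference was 1.85, with an FDR of 0.126. The DESeq2 call was lost without O2 (adjusted p 0.0670) or A2 (0.0590). The mean of O, OA and OAC exceeded A by 1.50 ± 0.38 (unadjusted p 0.00236, FDR 0.290, DESeq2 adjusted p 0.00302), and this call was lost without A2 (0.0950). The 3 osteogenic-potential groups overlapped one another, and the 95% interval of OA minus O ran from -1.21 to 0.64.

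Ihh and Ptch1 are the pair of members with the highest correlation of log2 CPM over the libraries, and their upstream sequences are shown for that reason. They are the 250 bases before 1 annotated start of each gene, 5′ to 3′ on the strand of the gene, from RefSeq on GRCm38.p6, whereas the counts were made on mm9. Capitals mark the GC box GGCGGG on either strand. The Ihh sequence is chr1:74951673-74951922 and the Ptch1 sequence chr13:63565736-63565985, both on the minus strand. The Ihh sequence ends where the gene begins (GENCODE span chr1:74945315-74951672), and the Ptch1 sequence lies within the span of its gene (chr13:63508328-63573598), which has a further start upstream, and overlaps 0 exon bases.
Ihh: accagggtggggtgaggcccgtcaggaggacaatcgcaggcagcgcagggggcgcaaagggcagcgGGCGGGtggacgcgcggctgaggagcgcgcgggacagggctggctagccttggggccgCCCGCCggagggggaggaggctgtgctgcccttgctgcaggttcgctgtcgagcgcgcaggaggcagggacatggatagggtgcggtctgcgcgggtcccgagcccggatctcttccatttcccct
Ptch1: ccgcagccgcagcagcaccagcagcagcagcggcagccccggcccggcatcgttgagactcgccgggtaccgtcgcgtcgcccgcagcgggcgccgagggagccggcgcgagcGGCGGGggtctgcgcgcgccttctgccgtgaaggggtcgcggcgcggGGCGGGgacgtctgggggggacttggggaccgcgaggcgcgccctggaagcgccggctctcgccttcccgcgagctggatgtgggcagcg

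Each held 2 GC boxes, a binding motif of Sp-family factors, and 72.0% and 78.4% of the bases were G or C. Entries were found for 7 of the 9 members, without Gli1 and Boc. A GC box was present in 5 of the 7 (Ihh, Ptch1, Hhip, Gli2 and Gli3) and in 32.5% of all 32851 promoters of the same length. The Cdon window, which had no GC box, lies within the span of its gene (chr9:35421128-35507652) and overlaps 31 exon bases. It therefore does not show the sequence before the outermost start of Cdon. The consensus of the Gli proteins, GACCACCCA on either strand, was present in none of the 7 and in 74 of all promoters (0.225%). This says only that these letters are not in these windows.

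Hhip (ENSMUSG00000064325) is a membrane protein that binds Hedgehog ligands without signalling and so removes them. It was at 4.44, 0.122 and 0.267 CPM in A1 to A3, at 0, 4.06 and 5.74 in O1 to O3, at 2.86, 0 and 0.852 in OA1 to OA3, and at 0, 0.0629 and 0.434 in OAC1 to OAC3. The groups overlapped, and the zeros allow up to 0.191 CPM in O1, 0.161 in OA2 and 0.132 in OAC1 (3 reads), while the drawn Poisson intervals, which are 2-sided, reach 0.235, 0.198 and 0.163 CPM. O minus A was 1.03 ± 1.77 on the log2 scale (edgeR, p 0.574, FDR 0.997, 95% interval -2.90 to 4.96). The mean of O, OA and OAC minus A was -0.84 ± 1.40 (p 0.563, FDR 0.999), and without A1 it was 2.17. At these depths and this spread no difference in Hhip was detectable between the replicated groups.

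Boc (ENSMUSG00000022687), an immunoglobulin-family co-receptor, was at 21.5, 7.01 and 12.02 CPM in A1 to A3 and at 103, 83.4 and 39.1 CPM in O1 to O3. It was at 45.7, 32.7 and 30.6 CPM in OA1 to OA3 and at 43.7, 38.6 and 14.4 CPM in OAC1 to OAC3. O and OA lay above A without overlap, and the pool OAC3 fell inside the range of A. Means were 75.2 ± 32.7 CPM in O, 36.3 ± 8.18 in OA, 32.2 ± 15.6 in OAC and 13.5 ± 7.36 in A. Boc had the lowest p of the members in O against A, at 2.47 ± 0.54 on the log2 scale (edgeR, unadjusted p 0.000943, FDR 0.183, 95% interval 1.27 to 3.68, DESeq2 adjusted p 0.000503). It was the member whose DESeq2 call was kept without each of the 6 libraries in turn and without OA2 and O1 (adjusted p 0.0147). O, OA and OAC together exceeded A by 1.72 ± 0.47 (unadjusted p 0.00409, FDR 0.336, DESeq2 adjusted p 0.00837), a call lost without A2 (0.171) or A3 (0.0948). Boc was also lower in OAC than in O by an unadjusted test (-1.22 ± 0.52, p 0.0400, FDR 0.808, DESeq2 adjusted p 0.452), with overlapping groups and -0.89 without OA2 and O1.

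Cdon (ENSMUSG00000038119), the co-receptor related to Boc, showed no such order. Group means were 73.2 ± 32.9 CPM in OAC, 61.1 ± 25.9 in O, 57.4 ± 17.9 in A and 56.4 ± 17.6 in OA. A alone spanned 39.1 to 74.9 CPM, and all groups overlapped. O minus A was 0.09 ± 0.42 on the log2 scale (edgeR, p 0.833, FDR 1, interval -0.83 to 1.01), and O, OA and OAC minus A was 0.14 ± 0.34 (p 0.695, FDR 0.999).

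Smo (ENSMUSG00000001761), the transducer that Ptch1 inhibits, was the steadiest member, with 137 CPM in A3 and 247 CPM in OA1 as extremes, a ratio of 1.8. Means were 210 ± 51.7 CPM in OA, 186 ± 49.6 in OAC, 162 ± 25.4 in A and 156 ± 27.2 in O. The groups overlapped, and O minus A was -0.05 ± 0.26 on the log2 scale (edgeR, p 0.854, FDR 1, interval -0.63 to 0.53). O, OA and OAC minus A was 0.18 ± 0.22 (p 0.429, FDR 0.999). In each of the 4 groups of 3 the pool had the lowest Smo, and it had the lowest Boc in 3 of the 4. The pool had the highest Ihh in 3 of the 4 groups, and the highest Ptch1, Hhip and Gli1 in 2 each. For Ihh, A is among these groups with only 2 reads in A3 against 1 each in A1 and A2.

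Gli1 (ENSMUSG00000025407) is the Gli activator that is itself induced by the pathway and is used as a readout of it, also in stromal cells. It was at 0.288, 1.46 and 1.45 CPM in A1 to A3, at 3.44, 14.1 and 4.54 in O1 to O3, at 2.41, 4.66 and 15.4 in OA1 to OA3, and at 3.49, 3.21 and 7.35 in OAC1 to OAC3. All 9 libraries with osteogenic potential were above all 3 A libraries, and A1 had 7 reads. Summed reads gave ratios to A of 7.25 in O (95% counting interval 5.72 to 9.27), 7.30 in OA (5.76 to 9.36) and 4.59 in OAC (3.59 to 5.94). O exceeded A by 2.78 ± 0.89 on the log2 scale (edgeR, unadjusted p 0.0100, FDR 0.339, 95% interval 0.82 to 4.75, DESeq2 adjusted p 0.0257). It was 3.11 without OA2 and O1, and 1.90 without O2. The DESeq2 call was lost without O2 (adjusted p 0.279), A1 (0.147) or A2 (0.0577). O, OA and OAC together exceeded A by 2.57 ± 0.80 (unadjusted p 0.00888, FDR 0.408, DESeq2 adjusted p 0.0114), a call lost without A1 (0.154). In the GENCODE annotation of the later build GRCm38, Gli1 shares 62 bases with Arhgap9 and 265 with Gm47200, both on the opposite strand. Hhip shares 175 bases with Gm27820 and Gli3 188 with Gm6556, again on the opposite strand. Of these overlapping genes only Arhgap9 is in the count table. Whether counting used strand is not given in the sources used here.

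Gli2 (ENSMUSG00000048402), the main activator in most tissues, had means of 39.4 ± 20.3 CPM in OA, 38.5 ± 17.2 in OAC, 28.2 ± 16.3 in A and 15.7 ± 9.11 in O. The lowest library was O1 at 7.00 CPM and the highest of the replicated groups OA2 at 62.2 CPM. The groups overlapped, and O minus A was -0.84 ± 0.62 on the log2 scale (edgeR, p 0.205, FDR 0.790, interval -2.22 to 0.54). O, OA and OAC minus A was 0.03 ± 0.51 (p 0.952, FDR 0.999). Gli3 (ENSMUSG00000021318), the main repressor, had means of 78.8 ± 11.6 CPM in OAC, 74.9 ± 22.1 in A, 73.0 ± 5.92 in O and 62.8 ± 29.6 in OA. Its groups overlapped too, with O minus A at -0.04 ± 0.34 (p 0.916, FDR 1, interval -0.78 to 0.71) and O, OA and OAC minus A at -0.07 ± 0.27 (p 0.797, FDR 0.999).

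Read over the comparisons, the 9 genes fell into 4 that stood higher in O than in A and 5 that did not. In O against A, 4 members did not overlap between the groups, all higher in O, where 15.6% of all tested genes did not overlap in either direction. At an unadjusted p under 0.05 edgeR gave 4 members against 9.89% of all genes. DESeq2 called the same 4 members against 3.03% of genes, and edgeR at the FDR called 0 members and 1 gene (0.00720%). Each of these counts of 4 includes Ihh, which passed the filter only through libraries where it is high. The median log2 fold change over the members was that of Hhip, 1.03, against 0.03 over all genes, and Hhip itself had 0.35 without O3 and -0.10 in the single clones alone. The members' median was 0.49 in OA against A, 0.45 in OAC against A and 0.18 in O, OA and OAC against A, where that of all genes was -0.03, -0.03 and -0.02.

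In OA against A, 3 members (Ptch1, Boc and Gli1) did not overlap, against 11.0% of genes. Unadjusted, 4 members against 5.27% of genes had a p under 0.05 in edgeR, with log2 differences of 5.00 ± 1.59 for Ihh (p 0.0101), 2.81 ± 0.89 for Gli1 (p 0.00963), 1.46 ± 0.43 for Ptch1 (p 0.00626) and 1.43 ± 0.52 for Boc (p 0.0209). Without OA2 and O1 these were 5.57, 3.06, 1.83 and 1.50. The FDR was 0.676 to 0.795 in all libraries, and edgeR called 0 members and 0.00720% of genes. DESeq2 called 1 member, Ihh (adjusted p 0.0489), against 0.937% of genes, and lost it without any 1 of 5 of the 6 libraries, OA2 being the exception. Ihh was tested only because of libraries with osteogenic potential, where it is high, so this count is not independent of the filter.

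In OAC against A, 2 members (Ptch1 and Gli1) did not overlap, against 10.8% of genes, and OAC3 was the library that brought Boc into the range of A. Unadjusted, 3 members against 3.58% of genes had a p under 0.05 in edgeR. These were Ptch1 at 1.30 ± 0.43 (p 0.0115), Gli1 at 2.13 ± 0.87 (p 0.0331) and Boc at 1.25 ± 0.52 (p 0.0365), each with an FDR of 1. Without OA2 and O1, which leaves the libraries compared here unchanged, they were 1.31, 2.14 and 1.27. edgeR called 0 members and 0.00720% of genes, and DESeq2 0 members and 0.411% of genes.

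When O, OA and OAC were set together against A, 2 members (Ptch1 and Gli1) did not overlap, against 2.29% of genes. Unadjusted, edgeR gave 4 members against 7.44% of genes, and at the FDR 0 members against 0.00720%. DESeq2 called 4 members against 2.04% of genes. The member Ihh was among them at 4.29 ± 1.47 in edgeR (p 0.0149, FDR 0.477, DESeq2 adjusted p 0.0283), a call lost without any 1 of OAC3, OA3, O2, A1, A2 or A3. Ihh was tested only through libraries where it is high, so its place in both counts of 4 is not independent of the filter. Leaving out OA2 and O1 gave 1.66 for Ptch1, 2.77 for Gli1, 1.64 for Boc and 4.65 for Ihh, and DESeq2 still called these 4.

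**Figure D2:**
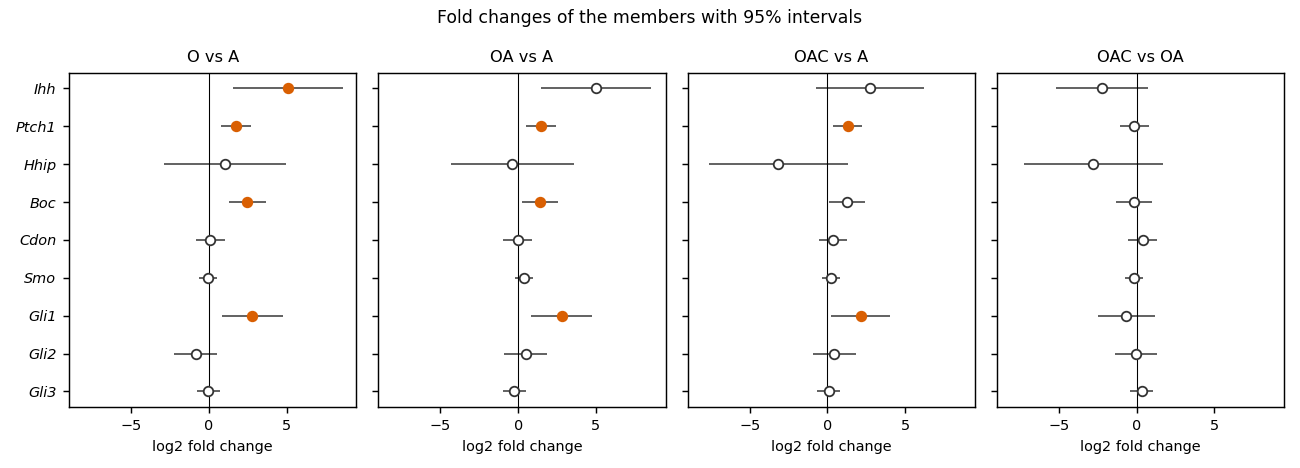
Log2 fold change of each of the 9 Hedgehog genes with its 95% interval (edgeR) in 4 comparisons, as named above each panel; orange symbols are genes whose groups did not overlap and white symbols genes whose groups did. Against A, the intervals of Ptch1, Boc and Gli1 lie above 0 for O, OA and OAC, and that of Ihh for O and OA. In OAC against OA no interval excludes 0.

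Among the groups with osteogenic potential the members were not told apart. In OA against O, OAC against OA and OAC against O, 0 members had non-overlapping groups, against 8.20%, 4.93% and 11.5% of genes. edgeR called 0 members and 0% of genes in each. Unadjusted, it gave 0, 0 and 1 members (Boc, above) against 5.43%, 1.17% and 6.02% of genes, and DESeq2 gave 0 members against 0.303%, 0% and 0.728%. The multipotent groups (OAC and OA) against the unipotent groups (O and A) gave 0 non-overlapping members against 0.288% of genes. There edgeR gave 0 members unadjusted against 4.86% of genes and 0 at the FDR against 0%, and DESeq2 gave 0 against 0.223%. The spread limits these statements: the interval of Gli1 in OAC minus OA ran from -2.51 to 1.15 and that of Ihh from -5.23 to 0.72.

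The OC3 pool, the osteo-chondrogenic library, held the most Ihh, Ptch1, Hhip and Cdon of all 14 libraries. With 1 library there is no replicate and no test, and the intervals cover counting error only. OC3 and AC3 are pools, and the part of pooling in their levels was not tested. Ihh had 219 reads, or 8.30 CPM (95% exact Poisson interval 7.24 to 9.48), which was 1.78 times (1.41 to 2.25) the next library, O2. Ptch1 was at 181 CPM (176 to 186), 1.37 times (1.31 to 1.44) O2. Hhip showed the widest gap, with 1226 reads or 46.5 CPM (43.9 to 49.2), 8.10 times (6.84 to 9.64) the next library, O3. Cdon was at 142 CPM, 1.31 times (1.25 to 1.38) OAC1.

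Gli1 in OC3 was at 14.4 CPM, 0.931 times the highest library OA3 (0.803 to 1.08), and Boc, at 79.7 CPM, was below O1 and O2 and above the rest. Gli2 (33.6 CPM), Gli3 (95.6 CPM) and Smo (142 CPM) lay inside the range of the 12 libraries of the replicated groups. OC3 also held the cartilage proteoglycan gene Acan at 5.99 CPM (158 reads), against at most 0.673 CPM in the other 13 libraries. The cartilage collagen gene Col2a1, at 160 CPM in OC3, was inside the range of the others (16.2 to 299 CPM). Sp7 in OC3 was at 192 CPM, and the adipocyte gene Lpl, at 3.68 CPM, was above O2 alone. The part of cartilage-like or osteogenic cells in the Hedgehog levels of OC3 was not tested.

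The AC3 pool, adipo-chondrogenic, combined an Ihh level like that of A with more Gli1 than any A library. Ihh was at 2 reads (0.0794 CPM), about the level of A3, Sp7 was at 0.873 CPM, and Hhip was at 0.357 CPM. Gli1 was at 12.1 CPM (10.8 to 13.6), 8.32 times the highest A library, and was exceeded in OA3, OC3 and O2. Ptch1 was at 55.3 CPM, 1.62 times the highest A library, and Boc at 48.8 CPM, 2.27 times. Gli2 reached its highest level of all libraries in AC3, at 85.6 CPM (82.0 to 89.2), 1.38 times (1.28 to 1.48) OA2. Gli3, at 102.5 CPM, was 1.02 times A1 with an interval of 0.967 to 1.08, so counting error alone covers that difference.

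Over the 14 libraries, the levels of some members moved together. These correlations of log2 CPM are descriptions across libraries that share depth and GC trends, and no p is attached. Of the 36 pairs, Ihh and Ptch1 had the highest Pearson r, 0.88 (Spearman rho 0.91), with 0.81 without the libraries farthest from the median of Ihh (OC3 and O2) and 0.83 after a correction for GC content. Ptch1 and Gli1 had an r of 0.73 (rho 0.77), with 0.68 without A2 and A3. Ihh and Hhip had 0.69, which became 0.45 without OC3 and O2. Boc and Ptch1 had 0.67, and 0.40 without A2 and A3. Gli1 and Gli2 had 0.03, and Smo and Ptch1 -0.31. Within A, OA2 and OAC1, Ihh was at 1 or 2 reads while Ptch1 ranged from 24.5 to 71.1 CPM, so at the low end Ihh gives no order.

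**Figure D3:**
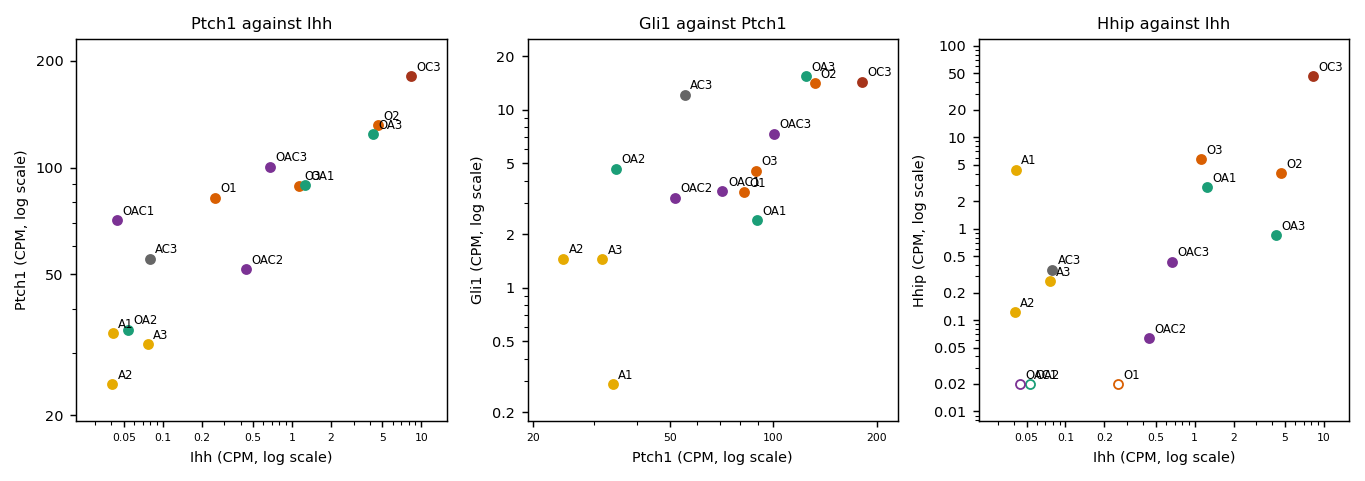
Levels of 3 pairs of members in the 14 libraries, in CPM on log axes, each point labelled with its library; open points at 0.02 are libraries with 0 Hhip reads. Ptch1 and Ihh run together from the A libraries to OC3, AC3 has high Gli1 for its Ptch1, and OC3 lies far above the other libraries in Hhip.

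Of 11645 named genes with tested levels, Ihh was the ninth most like Ptch1. The 5 most like it by Pearson r were Nt5e (0.927), Spns2 (0.921), Xpot (0.899), Dlx3 (0.896) and Gcnt1 (0.894). Nt5e encodes the stromal surface enzyme CD73 and Dlx3 a homeobox factor of bone and skin. For Gli1 the 5 most like were Sox8 (0.952), Edem1 (0.890), Zbtb7c (0.873), Col5a2 (0.865) and Prkcc (0.844). After the correction for GC content Edem1 had 0.604 and the other 4 had 0.834 to 0.960. Ptch1 was at place 51 and Ihh at place 173 in the order of likeness to Gli1.

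The other genes of the pathway shared no direction. Of 68 further genes in 5 lists, 66 were in the table and 55 were tested, and edgeR called 0 of them at the FDR in every comparison. In O against A, 3 were higher and 4 lower at an unadjusted p under 0.05, which is 12.7% of the 55 against 9.89% of all genes, and the median log2 fold change of the 55 was 0.12 against 0.03 over all genes. In O, OA and OAC against A, 5 were higher and 6 lower, which is 20% of the 55 against 7.44% of all genes, with a median of -0.03 against -0.02.

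Ligand and ligand-release genes in the table (6 of 8, 2 tested) gave 0 at the unadjusted p in O against A, with a median of 0.21. The ligand Dhh was at most at 0.191 CPM in any library, and Shh was not among the gene symbols of the count table. Among 6 receptors and co-receptors, 4 were tested and 0 passed the unadjusted p, with a median of 0.36. The co-receptor Gas1 was abundant in all libraries, from 64.0 to 338 CPM. The 14 primary cilium genes were all tested, with 0 at the unadjusted p and a median of 0.31.

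Among 18 tested genes of signal transduction and Gli regulation, 2 were higher and 1 lower in O against A at the unadjusted p, against 9.89% of all genes, with a median of -0.00. The higher ones were Glis1 (9.30 against 4.29 CPM, 1.11 ± 0.42, p 0.0234, FDR 0.423) and Glis2 (119 against 65.2 CPM, 0.87 ± 0.34, p 0.0265, FDR 0.433), zinc finger factors related to the Gli proteins. The lower one was Prkar1a (480 against 773 CPM, -0.69 ± 0.26, p 0.0241, FDR 0.425), the regulatory subunit of protein kinase A, the kinase that marks Gli proteins for processing. DESeq2 called none of these 3, and Glis2 had 0.43 without O1 and 0.41 without OA2 and O1. Sufu, the cytoplasmic inhibitor of the Gli proteins, was at 47.8 to 97.1 CPM.

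Among 17 tested targets reported in various tissues, 1 was higher and 3 lower in O against A at the unadjusted p, against 9.89% of all genes, with a median of -0.48, the opposite direction to Ptch1 and Gli1. Foxl1, a forkhead factor induced by Hedgehog in gut mesenchyme, was at 0.382, 0.122 and 0.413 CPM in O1 to O3 and at 3.13, 1.70 and 2.86 CPM in A1 to A3. Its log2 difference was -3.06 ± 0.56 (edgeR, p 0.000241, FDR 0.151, DESeq2 adjusted p 4.03e-05). Foxc2, a mesenchymal forkhead factor, had means of 2.79 and 14.8 CPM (-2.40 ± 0.59, p 0.00211, FDR 0.229, DESeq2 adjusted p 0.00388). Cyp1b1, a cytochrome P450 enzyme, had means of 69.6 and 277 CPM (-1.99 ± 0.51, p 0.00264, FDR 0.236, DESeq2 adjusted p 0.00785). Foxf2, named after its values were seen because it completes the 4, was higher in O, at 15.9 against 1.92 CPM (3.05 ± 0.98, p 0.0107, FDR 0.339, DESeq2 adjusted p 0.0206). The groups did not overlap for any of these 4, which for Foxl1, Foxc2 and Cyp1b1 was a condition of being named. Of all 17 tested targets, 2 were higher and 5 lower in O without overlap, where 15.6% of all genes did not overlap. DESeq2 called Foxl1 without each of the 6 libraries in turn. Foxc2 lost the call without O2 (adjusted p 0.0517) or A2 (0.0512), Cyp1b1 without O1 (0.0560), O2 (0.0656), A1 (0.0712) or A2 (0.0988), and Foxf2 without O1 (0.131), O2 (0.0924), A1 (0.145) or A2 (0.145). Without OA2 and O1 the differences were -3.25 for Foxl1, -2.08 for Foxc2, -1.67 for Cyp1b1 and 2.88 for Foxf2, and Foxf2 lost the DESeq2 call (0.0506).

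**Figure D4:**
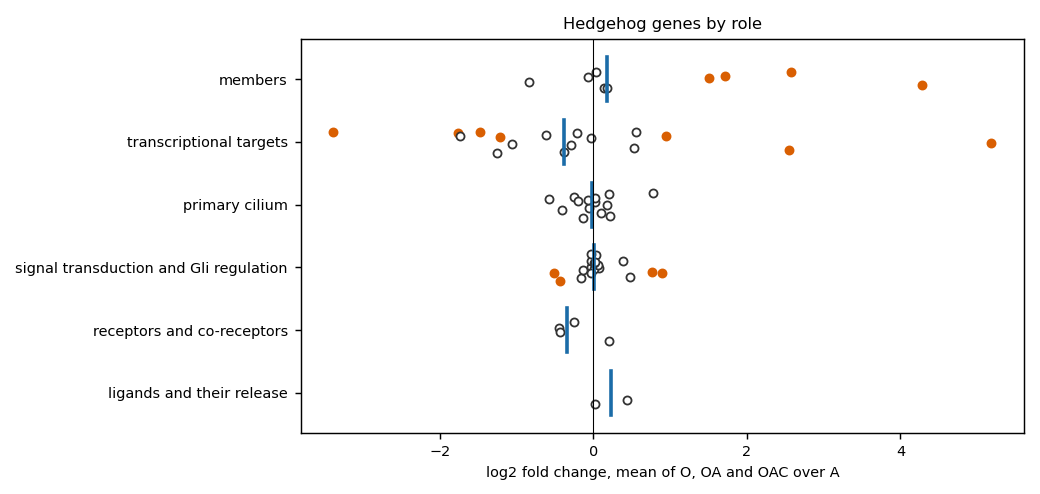
Log2 fold change (edgeR, mean of O, OA and OAC over A) of every tested gene of the 5 lists of other Hedgehog genes and of the 9 members; orange points have an unadjusted p under 0.05, blue bars are list medians, and the vertical scatter within a list is random jitter. The members Ihh, Gli1, Boc and Ptch1 lie between 1.50 and 4.29, while the targets spread to both sides of 0 with a median of -0.39.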

How the data were processed

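Per the labels' protocols, mRNA was selected on oligo(dT) beads and sequenced strand-specifically in 14 libraries. The authors deposited raw read counts per gene in a single table. The submitters' processing notes name CASAVA 1.8.0, bedtools 2.11 and the build mm9. The aligner, the read filters and whether counting used strand were not given in the sources used here. Total counts were 16888190 to 26076539 per library, and intervals from counts are 95% exact Poisson intervals that cover counting error only.

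Of 23331 genes, 13896 reached 1 CPM in 3 or more libraries and were tested in R 4.3.3 with edgeR 4.0.16 (quasi-likelihood F test), with robust dispersions, TMM factors and 1 mean for each of the 6 labelled groups. P-values were adjusted over all tested genes (Benjamini-Hochberg, FDR threshold 0.05) within each of 8 comparisons. The SE was taken from the log2 fold change and its F statistic, and 95% intervals use 10.4 degrees of freedom. The second test was DESeq2 1.42.0, which gave no adjusted p for 21 genes. Correlations used log2 CPM with a prior count of 2. The correction for GC content used the exonic GC content of GENCODE genes on GRCm38. Promoter sequences came from RefSeq.

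All 9 members were to be described in O against A and in O, OA and OAC against A, and elsewhere at an unadjusted p under 0.05. Other pathway genes were to be named at an unadjusted p under 0.05 with non-overlapping groups, at most 3 per list, and for Gli1 and Ptch1 the 5 genes most alike. The members and lists were chosen with earlier results of these data known. Intervals and values outside this rule, such as the Ptch1, Gli1 and Ihh intervals between osteogenic groups, were chosen after their values were seen. Alternatives were other scalings, filters and tests, GC content, the replicate number as a block, single clones and leaving out libraries.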

Additional observations from a re-analysis of the deposited data

Results flagged for a closer look

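In the OC3 pool, which enters no comparison, 4 Hedgehog genes were above every library of the replicated groups. These were Ihh at 8.30 CPM, Ptch1 at 181 CPM, Hhip at 46.5 CPM and Cdon at 142 CPM. In the AC3 pool, also outside the comparisons, Gli2 was above every such library at 85.6 CPM. Each value rests on 1 library with no replicate.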

How the results depend on the processing

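Of 637 alternative values of 33 log2 fold changes, 611 kept their direction and 26 reversed, all of them for Hhip, Cdon, Smo, Gli2 or Gli3. edgeR called 0 members in every comparison and edgeR setting, leave-one-out included (0 to 0), and limma-voom, run once on all libraries, also called 0, whereas DESeq2 called 4 in O against A, 1 in OA against A and 4 in O, OA and OAC against A. The cause was not tested. With the single clones alone, O minus A was -0.10 for Hhip and -0.22 for Cdon. Under DESeq2, and under its size factors, O minus A was 0.01 for Smo and 0.01 for Gli3. With the total count alone, which moved the median of all genes to -0.12 in O, OA and OAC against A (-0.02 under TMM), that difference was -0.08 for Gli2. Without OA2 and O1 it was -0.01 for Gli2 and 0.05 for Gli3. Leaving out single libraries gave ranges in O against A of -0.31 to 0.33 for Cdon, -0.20 to 0.07 for Smo and -0.18 to 0.23 for Gli3. In O, OA and OAC against A they were -1.66 to 2.17 for Hhip (highest without A1), -0.08 to 0.38 for Cdon, -0.37 to 0.42 for Gli2 and -0.21 to 0.20 for Gli3.

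Counts of members with non-overlapping groups rested on few libraries. With single clones alone they were 5 in OA against A, 5 in OAC against A and 4 in O, OA and OAC against A, where groups of fewer libraries leave 38.3%, 43.0% and 8.53% of all genes without overlap. The total count alone gave 1 in O, OA and OAC against A, and the share of all genes in that setting was not computed. Leave-one-out ranges were 4 to 5 in O against A, where 21.6% to 40.4% of all genes did not overlap in these settings. They were 3 to 4 in OA against A (16.7% to 29.9% of all genes). In OAC against A they were 2 to 4 (4 without OAC3 or without A1, against 33.1% and 21.4% of all genes). In O, OA and OAC against A they were 2 to 3 (2.41% to 5.53% of all genes). Ihh, with 4 reads in all A libraries, has the weakest footing in depth, and it had no value under the filter of 5 CPM and with single clones alone, nor, in O or OA against A, with only the groups compared in the fit.

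Deviations of same-numbered libraries from their group means correlated over 0.1 in 11 of 18 pairs (from -0.59 to 0.76), and 7 of 12 libraries correlated best with their own number. All 6 pairs of number 3, the pools, were over 0.1 (0.30 to 0.76), and those of the single clones were mixed. Not every pair passed, and the labels do not state that a number marks the same mouse in every group. The numbers were therefore not taken to pair the libraries. With the replicate block, edgeR called 0 members in each comparison, and O minus A was 1.82 for Ptch1, 2.44 for Boc, 2.95 for Gli1 and 4.92 for Ihh. It was 0.01 for Gli3, and 0.05 with the block and a GC correction.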
